A study of Mus musculus with 4 samples.

Results

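Chromatin accessibility was measured by ATAC-seq at 23595 consensus peaks in neutrophils flow-sorted from mouse bone marrow, and 941 of these peaks (3.99%) are described here. They are the peaks whose detailed annotation is Intergenic, with no repeat or CpG island named, and whose distance to the nearest transcription start site (TSS) is above 100 kb. Accessibility was not used to choose them. The 4 libraries came from 2 genotypes, with 2 libraries of Morrbid deficient neutrophils, from the C57BL6 background, as KO and 2 of C57BL6 neutrophils as WT. Morrbid makes a long non-coding RNA, and its loss is known to shorten the life of neutrophils, eosinophils and classical monocytes. The cells were not cultured, no treatment is named, and 50000 cells of each genotype were transposed in duplicate. The labels do not give how Morrbid was inactivated, the age or sex of the mice, or whether the duplicates are different mice. The p-values therefore rest on the spread between duplicate libraries, which could be purely technical. The comparison of KO with WT addresses how open chromatin far from genes differed without Morrbid.

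In ATAC-seq the Tn5 transposase cuts into open chromatin, and the number of reads at a site reports how accessible it was. Peaks far from any start site mark candidate enhancers, insulators and unannotated start sites, and enhancers of blood cell genes are known to act over such distances through looping of the chromatin fibre. The nearest start site does not say which gene a distal element acts on, so the gene names used here give a position and not a target.

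The values were the submitters' normalised signal per library. They lie on a grid of 1 step per library, and the number of steps serves as a measure of depth. All peaks held 6182922 and 7930547 steps in the KO libraries, against 3577922 and 3803711 in the WT libraries, so depth followed genotype and the 2 cannot be told apart. The median distal peak held 108 and 136 steps in KO libraries and 63 in each WT library, and all 941 passed the filter on low signal. Across these peaks, which are not independent replicates, the log2 signal correlated at 0.968 within the KO pair, at 0.938 within the WT pair and at 0.902 to 0.929 between genotypes (Pearson's r). Promoter peaks were present for 9 of 12 neutrophil markers, with a summed signal of 4532 to 4630 in KO libraries and 4014 to 4498 in WT libraries. Of the 9, the promoter peak of Csf3r, the G-CSF receptor gene, was called lower in KO by limma and no other was called. Fpr1, Ly6g and Mmp9 had no promoter peak. None of 8 B cell, 9 T and NK cell or 10 eosinophil and basophil marker symbols had a promoter peak. Siglecf and Adgre1 were also entered under their older symbols, Siglec5 and Emr1. Of 9 monocyte marker symbols, 3 had a promoter peak, with sums of 288 to 318 in KO and 306 to 320 in WT libraries. For erythroid and megakaryocyte markers, 2 of 9 had one (261 to 295 in KO, 252 to 274 in WT libraries), and for stem and progenitor markers 5 of 8 (886 to 929 in KO, 910 to 939 in WT libraries).

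The distal peaks were weaker and narrower than the average peak. Their median mean signal over the 4 libraries was 93.7, against 122.9 for all peaks, 91.6 for the 4582 intergenic peaks within 100 kb of a start site and 230.7 for promoter peaks. Their median width was 502 bp, against 573 bp for all peaks. The median distance to the nearest start site was 165.2 kb, the largest was 1414449 bp, and 36 peaks lay beyond 500 kb. They lay to either side of genes, with 460 upstream and 481 downstream of the start site. They lay nearest to 404 listed genes, of which 219 had a single such peak, and the nearest gene was protein-coding for 702 peaks, a non-coding RNA for 226 and a pseudogene for 13. Chromosome 10 held 101 of them and chromosome 13 held 98.

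Few of these peaks were called. By limma over all 23595 peaks with Benjamini-Hochberg adjustment, 56 of the 941 were higher in KO at an adjusted p below 0.05 (5.95%), 25 were lower (2.66%) and 860 were not called. Over all peaks, 6.08% were called higher in KO and 4.55% lower, so the share of gains was near the background and the share of losses was below it. At an unadjusted p below 0.05 there were 156 higher and 71 lower. The 56 gains had a median log2 fold change of 0.65, and 9 of them reached 2-fold. The 25 losses were larger in size, with a median log2 fold change of -1.09, and 14 reached 2-fold. Larger losses than gains were not particular to distal peaks. Over all peaks the median was 0.49 for gains and -0.80 for losses, and at intergenic peaks within 100 kb 0.63 and -0.89. Of the 14 distal losses that reached 2-fold, 7 lay at the low-coordinate ends of chromosomes, described below. The 17 distal losses elsewhere had a median of -0.79, close to that of losses over all peaks. The calls of distal peaks depended on the variance model and on the libraries kept. With 1 library left out, the lone library was assumed to vary like the pair of the other genotype. Without a mean-variance trend limma called 0 of the 941 in either direction (148 higher and 83 lower at an unadjusted p below 0.05), and with a library left out it called 10 higher and 16 lower without KO replicate 1, 5 and 13 without KO replicate 2, 143 and 41 without WT replicate 1, and 84 and 51 without WT replicate 2. The split moved with the scaling, to 83 gains and 19 losses after median centring of all peaks and to 41 and 37 after scaling to equal totals. Thinned to equal depth, a setting added after the values were seen, the libraries gave 63 gains and 34 losses.

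As a group the distal peaks leaned towards higher signal in KO by a small amount. Their median log2 fold change was 0.09, against -0.0019 for all peaks, -0.0049 for intergenic peaks within 100 kb and -0.02 for promoter peaks. The change was positive at 550 of 941 (58.4%), against 49.8% of all peaks. Both KO libraries lay above both WT libraries at 323 peaks (34.3%, against 28.0% of all peaks) and below both at 179 (19.0%, against 27.3%). The median was positive on 19 of 20 chromosomes and above the median of all peaks of the same chromosome on 17 of 20. It fell to 0.04 when WT replicate 2 was left out.

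Library by library, the median log2(signal + 1) of distal peaks lay below that of all peaks in every library, by 0.33 and 0.36 in the KO libraries and by 0.44 and 0.53 in the WT libraries. Both KO libraries were thus closer to the median of all peaks than either WT library. The difference between genotypes, 0.14, had a two-sided exact permutation p of 0.33, the smallest that 2 libraries against 2 can give. The size of the difference depended on the WT library. Against WT replicate 2, the median difference over distal peaks was 0.13 for KO replicate 1 and 0.12 for KO replicate 2, and against WT replicate 1 it was 0.06 for KO replicate 1 and 0.03 for KO replicate 2. Between replicates it was -0.0080 for KO replicate 1 minus 2 and 0.07 for WT replicate 1 minus 2, so the differences from WT replicate 2 exceeded those between replicates and the differences from WT replicate 1 did not exceed that of the WT pair. Distal peaks held 2.60% and 2.64% of the signal in the KO libraries and 2.66% and 2.50% in the WT libraries. These shares overlapped between genotypes (means 2.62% ± 0.027 in KO and 2.58% ± 0.11 in WT, SD, n = 2 each; two-sided exact permutation p = 1, in a design that cannot go below 0.33).

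**Figure D1:**
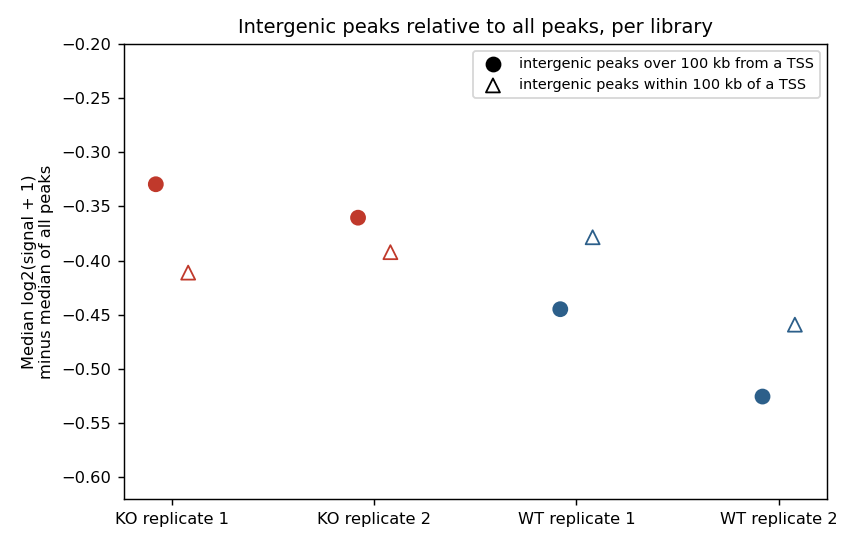
Median log2(signal + 1) of intergenic peaks minus the median of all peaks (y axis) in each of the 4 libraries (x axis), for peaks over 100 kb from a start site (filled circles) and within 100 kb (open triangles), with KO in red and WT in blue. The filled circles lie at -0.33 and -0.36 in KO libraries and at -0.44 and -0.53 in WT libraries, and the triangles of the genotypes overlap.

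The lean varied with peak strength. With all peaks split into quartiles of mean signal, the median log2 fold change of distal peaks was 0.0029 in the weakest quartile, 0.12 and 0.17 in the middle quartiles and 0.10 in the strongest. The medians of all peaks in the same quartiles were -0.08, -0.08, -0.03 and 0.11. In the strongest quartile the medians were close, and in the lower 3 quartiles the median of distal peaks was above that of all peaks. Intergenic peaks within 100 kb had medians of -0.07, -0.05, 0.07 and 0.09, also above those of all peaks in the lower 3 quartiles. In each quartile their median was below that of distal peaks. Gains were more frequent among stronger peaks. In the strongest quartile 22 of 120 distal peaks were called higher in KO (18.3%, against 15.7% of all peaks there), and in the weakest 4 of 338 (1.18%, against 1.41%). Losses took 1.18%, 3.58%, 2.45% and 5.0% of distal peaks from the weakest to the strongest quartile, against 4.19%, 5.39%, 5.88% and 2.75% of all peaks, so the strongest quartile had the highest share of losses among distal peaks and the lowest among all peaks.

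**Figure D2:**
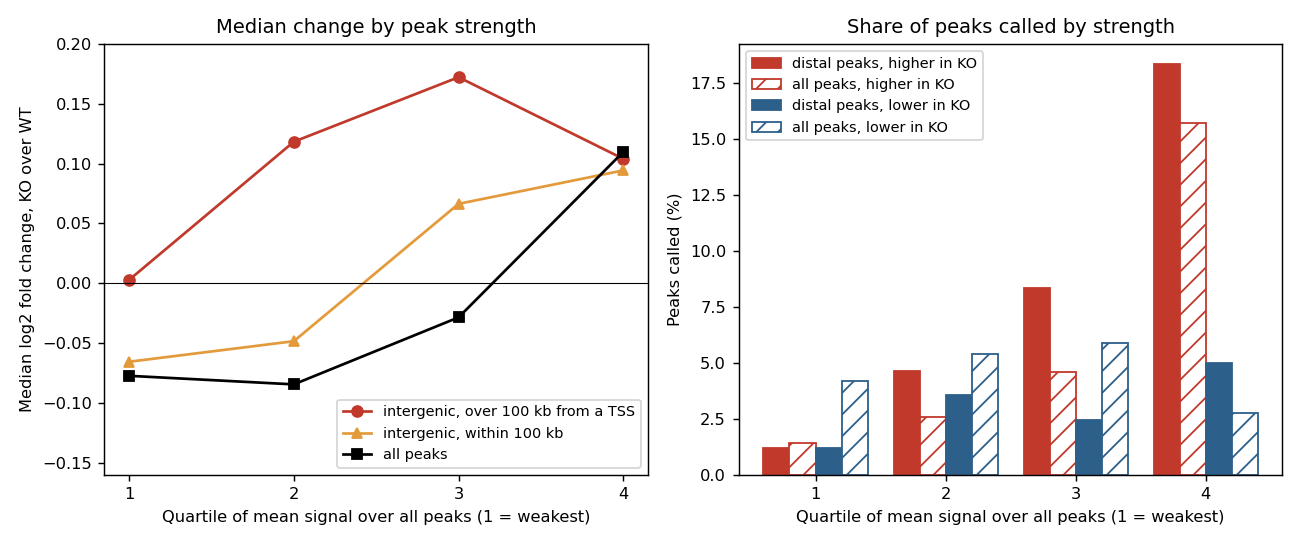
Left, median log2 fold change of KO over WT (y axis) by quartile of mean signal over all peaks (x axis), for distal intergenic peaks, nearer intergenic peaks and all peaks. Right, percent of distal peaks (filled bars) and of all peaks (hatched bars) called higher (red) or lower (blue) in KO per quartile; 18.3% of distal peaks in quartile 4 were called higher.

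The lean was positive in every distance range and larger beyond 200 kb. The median log2 fold change was 0.07 for the 384 peaks at 100 to 150 kb, 0.08 for the 241 at 150 to 200 kb, 0.13 for the 187 at 200 to 300 kb, 0.16 for the 93 at 300 to 500 kb and 0.14 for the 36 beyond 500 kb. Gains numbered 20, 16, 10, 6 and 4 in these ranges (5.21%, 6.64%, 5.35%, 6.45% and 11.1%, against 6.08% of all peaks). Losses numbered 8, 7, 2, 6 and 2 (2.08%, 2.90%, 1.07%, 6.45% and 5.56%, against 4.55%). The peaks on either side of the 100 kb bound are given as a description. Just inside it, the peak 100012 bp from Pik3r1, a regulatory subunit of PI3 kinase, had 125 and 120 in KO against 77.8 and 97.4 in WT, and the peak 100220 bp from Ankrd46 had 74.2 and 79.7 in KO against 80.7 and 71.0 in WT. The third, 100218 bp from Gm20125, had 37.1 and 31.2 in KO against 42.6 and 43.1 in WT. The Pik3r1 peak was higher in both KO libraries, the Gm20125 peak lower, and the Ankrd46 peak overlapped. Just outside, the peak 99917 bp from 1700060C16Rik had 207 and 151 in KO against 185 and 186 in WT, and that 99894 bp from Ccnl1, a cyclin, had 419 and 374 in KO against 379 and 319 in WT. The peak 99781 bp from Thbs1, which encodes thrombospondin 1, had 232 and 206 in KO against 242 and 216 in WT. None of these 6 was called.

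**Figure D3:**
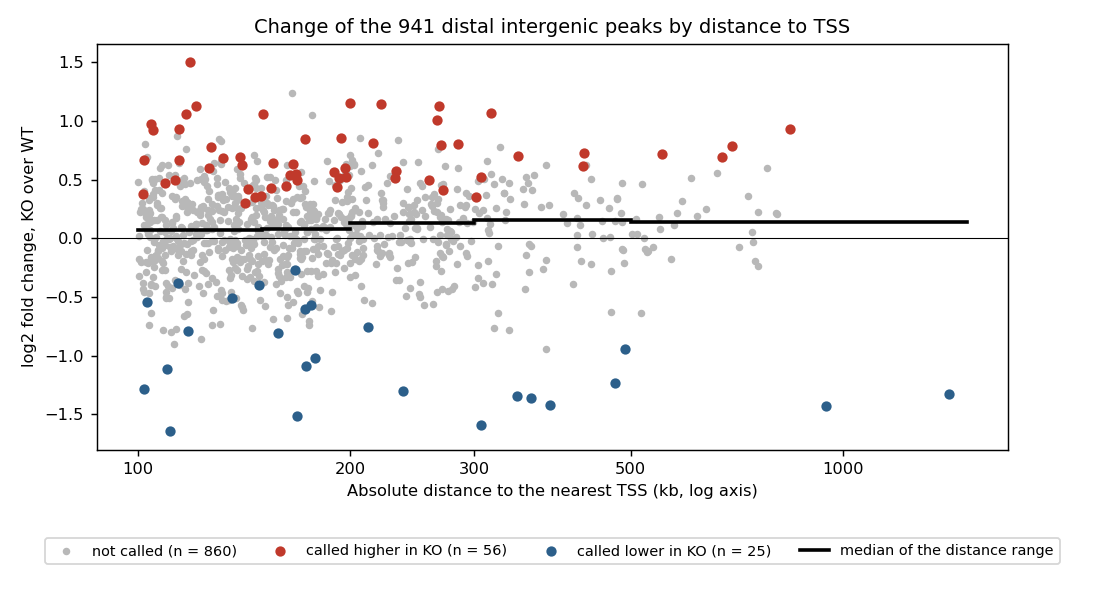
Log2 fold change of KO over WT (y axis) of the 941 distal peaks by absolute distance to the nearest start site in kb (x axis, log scale). Red points are the 56 peaks called higher in KO, blue points the 25 called lower and grey points the 860 not called; black lines are the medians of 5 distance ranges, which lie between 0.07 and 0.16.

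The gain of lowest p lay far from any gene. At chr2:46226297-46227163 (mm9), 674605 bp downstream of the start of 1700019E08Rik, the signal was 972 and 1118 in KO libraries, against 684 and 604 in WT libraries. It was high in both KO libraries and the groups did not overlap (log2 fold change 0.70 ± 0.09 SE, limma adjusted p = 3.90e-05). It was the 1 gain of 56 still called whichever library was left out. At 842772 bp from Mctp2, a membrane protein with C2 domains, the peak at chr7:78608376-78609042 had 285 and 402 in KO, against 169 and 185 in WT (0.93 ± 0.16, adjusted p = 5.50e-04). Its KO libraries differed more from each other than its WT libraries did, and the groups did not overlap. The largest fold change among the gains was near Tmem167, with 111 and 92.1 in KO, against 58.7 and 20.9 in WT (1.5, adjusted p = 0.0054), where the WT libraries lay far apart.

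The 12 gains of lowest p also included peaks near Tgfb2, Ahr, Gja1, Crlf2 and Sp8. Tgfb2 encodes a TGF-beta ligand, and the peak 199899 bp downstream of its start (chr1:188329849-188330096) had 138 and 153 in KO, against 74.8 and 55.7 in WT (log2 fold change 1.16 ± 0.22, adjusted p = 0.0016). Ahr encodes the aryl hydrocarbon receptor, a ligand-activated transcription factor, and the peak 116784 bp downstream (chr12:36102540-36103214) had 133 and 140 in KO, against 61.6 and 68.2 in WT (1.06 ± 0.22, adjusted p = 0.0027). Both peaks were about 2-fold higher in KO, with no overlap between genotypes. Gja1 encodes the gap junction protein connexin 43, and the peak 221101 bp downstream had 123 and 149 in KO, against 73.4 and 50.1 in WT (1.14 ± 0.24, adjusted p = 0.0028). Crlf2 encodes a subunit of the receptor for the cytokine TSLP, and the peak 131835 bp upstream had 354 and 346 in KO, against 194 and 245 in WT (0.68 ± 0.14, adjusted p = 0.0034). Sp8 encodes a zinc finger transcription factor of limb and brain development, and the peak 125906 bp upstream had 442 and 451 in KO, against 283 and 306 in WT (0.60 ± 0.12, adjusted p = 0.0025). In each of these both KO libraries lay above both WT libraries, which their choice required.

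The other gains among the 12 of lowest p had the same form. Pitrm1 encodes a mitochondrial peptidase, and the peak 284845 bp upstream had 239 and 238 in KO, against 148 and 125 in WT (log2 fold change 0.81). The peak 265284 bp from Prr30 had 172 and 152 in KO, against 76.3 and 83.5 in WT (1.01), and that 194078 bp from Tm2d1 had 197 and 213 in KO, against 117 and 109 in WT (0.85). The strong peak 149223 bp upstream of Gm20110 had 1362 and 1453 in KO, against 1109 and 1083 in WT (0.36). The 12 did not overlap between genotypes, which their choice required and which held at all 56 gains. Their adjusted p lay between 3.90e-05 and 0.0034. All but the 1700019E08Rik peak lost their call when at least 1 library was left out. In such a fit the lone library was assumed to vary like the pair of the other genotype. The calls therefore also changed with the pair that gave the variance. The direction of all 12 held in every such fit, with log2 fold changes of 0.31 to 1.41.

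The losses were steeper than the gains, as they were over all peaks. Gm4937 is listed nearest to chrX:73399418-73399759, 110057 bp away, where the signal was 462 and 319 in KO libraries, against 801 and 864 in WT libraries (log2 fold change -1.11 ± 0.13, limma adjusted p = 3.69e-06). Pcdh17 encodes a protocadherin, a cell adhesion protein of neurons, and the peak 946807 bp upstream (chr14:83896057-83897070) had 156 and 102 in KO, against 291 and 404 in WT (-1.43 ± 0.19, adjusted p = 2.81e-05). The farthest peak of all, 1414449 bp upstream of the microRNA gene Mir6350, had 59.2 and 54.7 in KO, against 131 and 159 in WT (-1.32 ± 0.22, adjusted p = 5.22e-04). At each, both KO libraries lay well below both WT libraries. The other 4 of the 6 farthest peaks were 780894 to 842772 bp away, near Inhba, a subunit gene of activin A, and Mctp2, and of these the Mctp2 gain above was called. Setbp1, which encodes a SET-binding protein mutated in human myeloid malignancies, had a strong peak 148278 bp upstream with 1035 and 1060.0 in KO, against 1410.3 and 1347 in WT (-0.40 ± 0.07, adjusted p = 0.0012). This was the smallest of the 12 losses of lowest p, and its replicates lay close together. The peak near 5031425F14Rik had 62.7 and 77.6 in KO, against 173 and 169.8 in WT (-1.29), and that near G530011O06Rik on chromosome X had 24.7 and 27.7 in KO, against 70.4 and 83.5 in WT (-1.52). Of the 10 distal peaks on chromosome X, 2 were called lower and 0 higher, against 2.66% lower among the 941 and 4.55% among all peaks. The median of the 10 was 0.07. The 12 losses of lowest p were still called after leaving out any single library, at adjusted p of 0.047 or less.

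**Figure D4:**
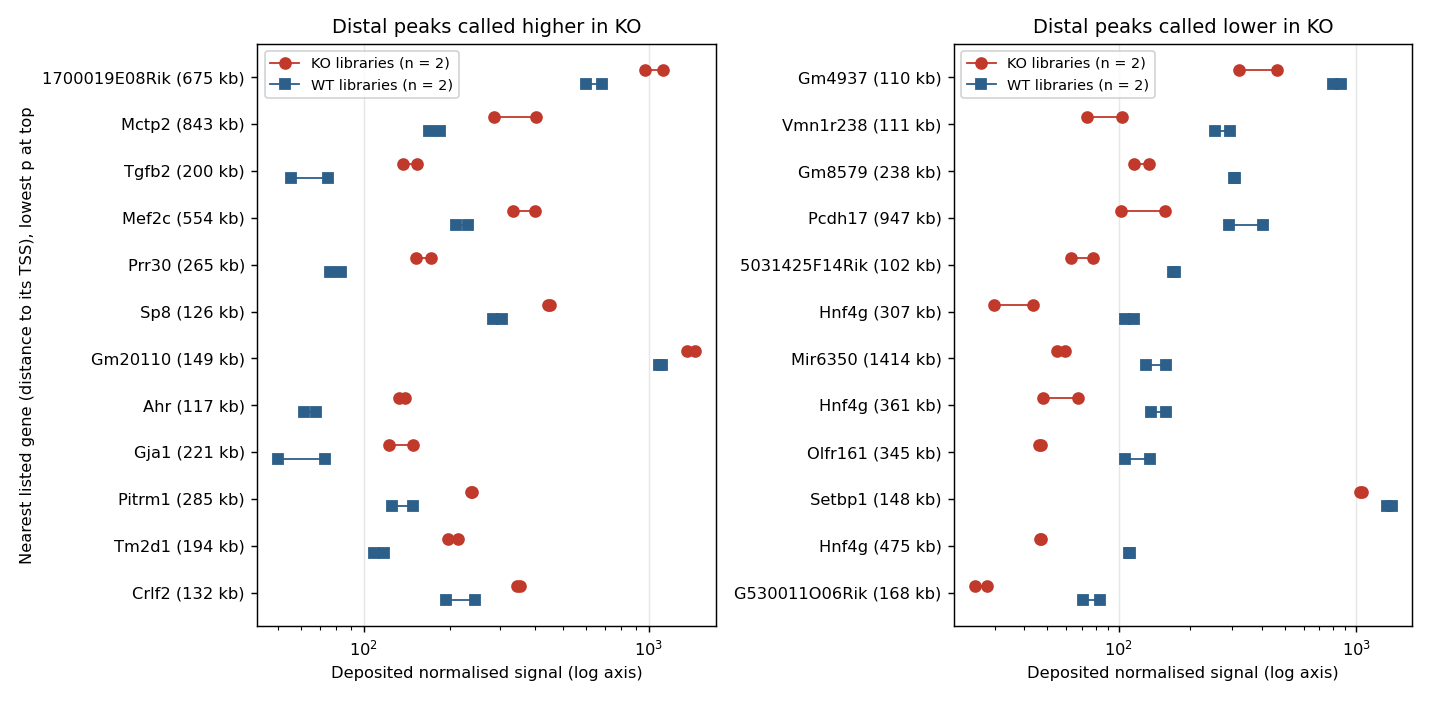
Normalised signal (x axis, log scale) in each library for the 12 gains (left) and the 12 losses (right) of lowest p, by nearest listed gene and distance to its start site (y axis). Red circles are the 2 KO libraries and blue squares the 2 WT libraries, joined by a line within a genotype. By the choice of peaks no pair of lines overlaps, from 1700019E08Rik (972 and 1118 in KO, 684 and 604 in WT) to G530011O06Rik (24.7 and 27.7 in KO, 70.4 and 83.5 in WT).

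A cluster of losses lay at the low-coordinate ends of chromosomes. Mouse chromosomes carry their centromere at that end, beside repeat-rich sequence. Of the 10 distal peaks in the first 3.5 Mb of a chromosome, a bound chosen after the values were seen, 8 were called lower in KO and 0 higher, which is 32.0% of the 25 losses. Near Vmn1r238, a vomeronasal receptor gene, the peak at chr18:3012156-3012869 had 103 and 73.4 in KO, against 255 and 295 in WT (log2 fold change -1.64, limma adjusted p = 5.05e-06), the largest fall of the 941. Near Gm8579 the peak at chr6:3000389-3000957 had 134 and 116 in KO, against 309.7 and 306 in WT (-1.30, adjusted p = 1.26e-05), and near Olfr161, an olfactory receptor gene, the peak at chr16:3247635-3248072 had 45.9 and 47.1 in KO, against 135 and 106 in WT (-1.34, adjusted p = 9.57e-04). These 3 peaks had 0.41 times the WT signal or less in KO. The other 5 losses were among the 6 distal peaks listed to Hnf4g, a nuclear receptor gene, between chr3:3016726 and 3201259. There log2 fold changes ran from -1.59 to -0.76, and both KO libraries were below both WT libraries at all 6. The exception was the peak near Tiam2, with 106 and 103 in KO, against 92.5 and 100.2 in WT. Of the 8 losses, 2 were not called without KO replicate 2, both near Hnf4g. Among the 104 other peaks in the same stretches, 9 were higher in KO (8.65%, against 6.08% of all peaks) and 11 lower (10.6%, against 4.55%). Those 11 losses all reached 2-fold, with a median log2 fold change of -1.49. Steep losses there were thus not particular to distal peaks. Without the 10 distal peaks of these stretches, 56 distal peaks were higher, 17 were lower and the median was 0.10. How reads in repeated sequence were mapped is not given in the sources used here, and its part in these losses was not tested.

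Most of the strongest distal peaks were not called. The highest mean signal was 227479 bp from Fzd1, a Wnt receptor gene, with 1841 and 1895 in KO and 1836 and 1585 in WT. Next came the peak 166626 bp upstream of Zeb2, a transcription factor of myeloid and lymphoid development, with 1537 and 1498 in KO and 1670.1 and 1457 in WT. At both the genotypes overlapped, and neither was called (log2 fold changes 0.13 and -0.04). Peaks near Hif1a, the oxygen-regulated transcription factor (1145 and 1133 in KO, 1058 and 1074 in WT), and near Jun, an AP-1 subunit (1093 and 998 in KO, 936 and 1080.0 in WT), were not called either. Plk2, a polo-like kinase gene, had a peak of 966 and 1066 in KO, against 911 and 866 in WT, which separated the genotypes without passing the test (0.19, adjusted p = 0.14). Of the 10 strongest, only those near Gm20110 (higher), Setbp1 and 1 of 2 near Eea1 (lower) were called.

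Distal peaks gathered around certain genes, and 37 listed genes had 6 or more, 291 peaks in all. The largest group was 24 peaks listed to Mir6388 over 715 kb of chromosome 12 (chr12:116357340-117072432), with 11 more listed to Mir7094-2 between 115884558 and 116262822. In RefSeq on a later assembly, GRCm38.p6, all 10 nearest genes around Mir7094-2 and 6 of 10 around Mir6388 were Ighv segments, the variable gene segments of the immunoglobulin heavy chain locus that B cells rearrange. Counting also Zfp386 and the neighbourhood of T cell receptor beta segments, 39 distal peaks had 3 or more V segments among the 10 genes nearest the listed gene. Their median signal was 89.9. No B or T cell marker listed above had a promoter peak, but neither did the neutrophil markers Fpr1, Ly6g and Mmp9. Which of the sorted cells gave the signal of the 39 peaks was not tested. None of the 39 was called higher in KO (2 at an unadjusted p below 0.05). A single peak was lower (chr12:116757135-116758770, 219 and 226 in KO, 309.7 and 352 in WT, log2 fold change -0.57, limma adjusted p = 0.010), and the median change of the 39 was -0.03.

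The other 4 of the 6 genes with most distal peaks had few calls. Maf, a bZIP transcription factor of macrophages and lymphocytes, had 11 distal peaks with a median log2 fold change of -0.15 and no call (2 lower at an unadjusted p below 0.05). Zfat, a zinc finger gene, had 12 with a median of -0.08 and no call (1 higher and 3 lower at an unadjusted p below 0.05). Zfp608, a zinc finger gene, had 11 with 1 loss (79.5 and 82.5 in KO, 158 and 128 in WT) and a median of -0.03. Eea1, which encodes an early endosome tether, had 10 and was the 1 gene with calls in both directions. A pair of its peaks was lower, with 217 and 225 in KO against 338 and 335 in WT at the first and 847 and 962 in KO against 1067 and 1115 in WT at the second. A peak downstream of its start was higher, with 151 and 164 in KO against 89.5 and 93.3 in WT.

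In a few neighbourhoods, picked after their values were seen, all distal peaks had a change of the same sign or several were called. Of the 37 genes, all peaks were positive at 3: Cpeb2, an mRNA-binding protein of translational control (7 of 7, median 0.33), Mir5130 (7 of 7, 0.43) and Plk2 (6 of 6, 0.32). All were negative at 1, Hnf4g. At Mir5130 both KO libraries lay above both WT libraries at all 7 peaks, yet 1 was called, with 728 and 804 in KO against 493 and 653 in WT. Of all 404 genes, 6 had 2 or more gains: Gm20110 (3 of 6 peaks), Mef2c (2 of 3), Tgfb2 (2 of 5), Trib2 (2 of 4), Prr30 (2 of 2) and Trp63 (2 of 2). Trib2 encodes a pseudokinase that can drive degradation of C/EBP-alpha, and Trp63 a p53-family transcription factor of epithelia. Of these 13 gains, 3 were called without KO replicate 1 and 1 without KO replicate 2.

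**Figure D5:**
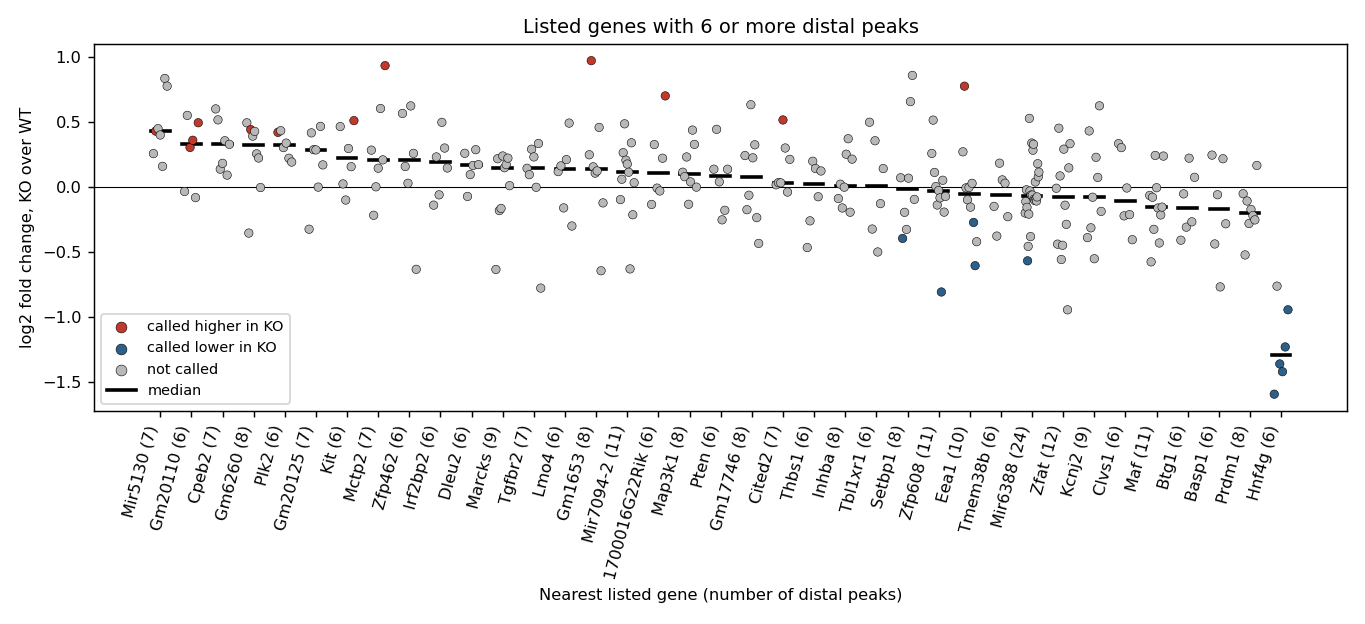
Log2 fold change of KO over WT (y axis) of each distal peak at the 37 listed genes with 6 or more (x axis, number of peaks in parentheses), ordered by median. Red points were called higher in KO, blue points lower and grey points were not called; the medians, drawn as bars, run from 0.43 at Mir5130 down to -1.30 at Hnf4g.

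The gene lists differed in how many distal peaks they held. Of 418 peaks listed to haematopoietic transcription factors, 64 were distal, as were 26 of 183 for cytokine, chemokine and receptor genes, 1 of 116 for neutrophil granule and effector genes and 0 of 56 for the BCL2 family, caspases and Morrbid, against 941 of 23595 peaks overall. Of 82 haematopoietic transcription factors, 17 had the 64 distal peaks, of which 5 were higher in KO (7.81%, against 6.08% of all peaks), 0 were lower and the median log2 fold change was -0.05. Mef2c, a MADS-box factor of myeloid and lymphoid development, had 2 of the 5. The peak 553802 bp upstream had 333 and 398 in KO, against 232 and 210.2 in WT (0.72, limma adjusted p = 0.0018), and the peak 429562 bp upstream had 181 and 195 in KO, against 117 and 109 in WT (0.73, adjusted p = 0.011). Both lay above WT in both KO libraries. Klf4, a factor of monocyte differentiation, had a peak 427561 bp upstream with 229 and 262 in KO, against 163 and 156 in WT (0.62, adjusted p = 0.015). Ikzf2, an Ikaros family factor, had 229.6 and 243 in KO, against 158 and 160.1 in WT (0.57, adjusted p = 0.023), and Bcl6, a transcriptional repressor, had 469 and 565 in KO, against 407 and 386 in WT (0.38, adjusted p = 0.038). Of the distal peaks near Bcl6 this was the only 1 with a positive change, and their median was -0.22. Its call was lost after scaling to equal totals (adjusted p = 0.078) and after cyclic loess (0.13). None of the 5 was called without KO replicate 2 (adjusted p 0.15 to 0.60) and 1, near Mef2c, without KO replicate 1.

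The other lists held 1 call among them. The 26 distal peaks of cytokine, chemokine and receptor genes lay at 5 genes, with 0 calls by limma (0 higher and 3 lower at an unadjusted p below 0.05) and a median log2 fold change of 0.02. They included 4 near Cxcr4, the receptor that retains neutrophils in the marrow, with log2 fold changes of -0.50 to 0.04 and a median of -0.04. The lowest of these 4 had 58.3 and 52.7 in KO, against 76.3 and 80.7 in WT (limma adjusted p = 0.22). In both KO libraries, 6 of the 26 lay below both WT libraries (23.1%, against 27.3% of all peaks). Another 3 lay above them (11.5%, against 28.0%), and the rest overlapped. Neutrophil granule and effector genes had 1, near Anxa1, which encodes annexin A1 (122 and 97.0 in KO, 141 and 124 in WT), and it was not called. Of 27 symbols for BCL2 family genes, caspase genes and Morrbid, none had a distal peak. Developmental regulators had 7 at 4 genes, among them Sall1 and Sall3, with 0 calls (also 0 at an unadjusted p below 0.05), and cadherin, guidance and synaptic adhesion genes had 8 at 4 genes, of which the peak near Pcdh17 was lower.

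Promoters of the listed genes gave a separate reading of the same loci. Of the 404 genes, 191 had a promoter peak, and 27 of these were higher in KO (14.1%) and 5 lower (2.62%), with a median log2 fold change of 0.06. Over all 8776 promoters, 7.68% were higher and 5.83% lower, with a median of -0.02. Promoters of genes listed at distal gains were called about as often as those of all 404 genes. Of the 49 genes listed at the 56 gains, 21 had a promoter peak and 3 of those were higher (14.3%): Mctp2 (0.47), Pitrm1 (0.44) and Mir5130 (0.21). Of the 20 genes listed at losses, 10 had a promoter peak and 1 was lower, G530011O06Rik (-1.10). Some promoters were called where distal peaks were not, among them Cpeb2 (0.36, limma adjusted p = 0.0027), Jun (0.28, adjusted p = 5.52e-04) and Anxa1 (0.66, adjusted p = 1.55e-04), all higher in KO, and Fzd1 (-0.66, adjusted p = 0.022), lower in KO.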

How the data were processed

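ATAC-seq was done on 4 libraries of sorted neutrophils, 2 KO and 2 WT, grouped and numbered by their titles. For each consensus peak the authors deposited its signal in every library after their own normalisation, with width, distance and annotation columns. Per the submitters' processing notes, the tools included BWA, MACS2 2.1.0, DiffBind and HOMER, with mm9 as the build; their settings, mapping filters and any Tn5 shift are not stated there. Other filters on reads in repeats could change peaks there. Coordinates are printed as deposited. No genome sequence was used here. RefSeq genes of GRCm38.p6 matched the listed gene of 940 of the 941 peaks and gave names, gene types and neighbours.

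All 23595 peaks were fitted with limma 3.58.1 in R 4.3.3 on log2(signal + 1), using a single genotype term, a mean-variance trend, two-sided tests and Benjamini-Hochberg adjustment over all peaks. A peak was called at an adjusted p below 0.05. Fold changes are on the log2(signal + 1) scale, which understates those of weak peaks. All distal peaks passed a minimum mean signal of 1. Single values per library were compared by exact permutation tests. If each grid step is taken as 1 read, which is not certain, replicates differed by more than counting noise. Over distal peaks, chi-square divided by its degrees of freedom was then 2.38 in KO and 2.34 in WT. Figures were drawn with matplotlib 3.10.9.

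The peaks described, the gene lists and the tests were chosen with earlier results of these data known. Named peaks were the 12 gains and 12 losses with the smallest p, taken from calls with no overlap between genotypes. Others were the 10 strongest, the 6 farthest and the 3 on either side of the distance bound. The 6 genes with most distal peaks and up to 4 peaks of lowest p per list were also named. The alternatives were other pseudocounts, a filter at 30, other scalings, no trend, the replicate number as a block, each library left out, other bounds on the distance, and the coarse annotation. Thinning to equal depth, and leaving out chromosome ends or V segment neighbourhoods, were added after seeing the data.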

Additional observations from a re-analysis of the deposited data

How the results depend on the processing

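The 56 gains and 25 losses kept their sign under every setting tried, but their numbers moved. Without a mean-variance trend 0 distal peaks were called higher and 0 lower by limma (148 and 83 at an unadjusted p below 0.05), and over all peaks 0 were higher and 22 lower (2206 and 2795 unadjusted). With 1 library left out, distal gains ranged from 5 to 143, distal losses from 13 to 51, gains over all peaks from 185 to 2610.0, losses over all peaks from 237 to 2189, and the distal median from 0.04 to 0.13. A lone KO or WT library was assumed there to vary like the pair of the other genotype. The share of signal in distal peaks, 0.042 percentage points higher in KO, ranged from -0.036 without WT replicate 2, a reversal, to 0.12. At a bound of 50 kb there were 124 gains, 46 losses and a median of 0.047, and at 200 kb 20 gains, 10 losses and a median of 0.14, since each holds other peaks. Including repeats and CpG islands added peaks to the set and gave 81 gains, 50 losses and a median of 0.092. Median centring gave 83 gains, 19 losses and a median of 0.16, total scaling 41, 37 and 0.040, and cyclic loess 45 and 28. Over all peaks these gave 2248, 879 and 807 gains and 777, 1319 and 888 losses. Median centring and total scaling shift all peaks of a library alike, or nearly so. They therefore moved the fold changes of distal peaks and of all peaks together. Why the counts moved under cyclic loess was not tested. Thinned to equal depth, distal peaks gave 63 gains and 34 losses, and all peaks 1508 gains and 1170 losses. With the replicate block there were 62 distal gains and 34 losses, and 1656 gains and 1279 losses over all peaks. Libraries of the same number did not deviate together (correlation -0.039 over all peaks). Whether they were prepared as pairs cannot be read from this. The count test planned on recovered reads was not run, because the deposited signal could not be turned into read counts with certainty. Depth limits the weakest peaks, which held as few as 6 steps in a WT library.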

Other observations

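The other called distal peaks given here were chosen after their values were seen. Near Cdkn2b, an inhibitor of the cell cycle kinases CDK4 and CDK6, a peak 196758 bp upstream had 361 and 357 in KO, against 241 and 232 in WT (log2 fold change 0.60 ± 0.13 SE, limma adjusted p = 0.0050). Near Kit, the receptor for stem cell factor, a peak 192697 bp upstream had 342 and 341 in KO, against 254 and 225 in WT (0.51 ± 0.14, adjusted p = 0.017). Near Cited2, a co-regulator of CBP and p300, a peak 231377 bp upstream had 506 and 567 in KO, against 371 and 377 in WT (0.52 ± 0.11, adjusted p = 0.0046). All 3 separated the genotypes. Near Etv1, an ETS family transcription factor, a weaker peak had 113 and 122 in KO, against 61.6 and 45.9 in WT (1.13 ± 0.24, adjusted p = 0.0039). Near Egfr, the epidermal growth factor receptor, a peak had 84.8 and 96.3 in KO, against 44.0 and 50.1 in WT (0.93 ± 0.26, adjusted p = 0.022).

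Losses away from chromosome ends included a peak 173088 bp from Sorl1, a sorting receptor, with 31.8 and 33.9 in KO, against 57.2 and 87.7 in WT (log2 fold change -1.09 ± 0.30, limma adjusted p = 0.023). Near Gadd45g, a stress-response gene, a peak had 58.3 and 88.0 in KO, against 96.9 and 160.1 in WT (-0.79 ± 0.25, adjusted p = 0.044), and near Dyrk2, a protein kinase, a peak had 142 and 152 in KO, against 205 and 223 in WT (-0.54 ± 0.17, adjusted p = 0.037). The replicates of the Gadd45g peak lay far apart in both genotypes. Each of these 8 peaks lost its call when at least 1 library was left out. Chromosome 13 held 98 of the 941 distal peaks, 9 of the 56 gains and 1 of the 25 losses. The median over its distal peaks was 0.20, against 0.11 over all 1184 peaks of that chromosome. Upstream of the start site 31 of 460 distal peaks were higher in KO (6.74%) and 16 lower (3.48%). Downstream, 25 of 481 were higher (5.20%) and 9 lower (1.87%). Over all peaks these shares were 6.08% and 4.55%.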
